A study of Mus musculus with 6 samples.

Results

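The genes described here are the 45 named genes of DNA replication and S phase, chosen by gene symbol from a fixed list and not by their values. All 45 had a row in a table of 11175 genes, and all 45 lay above the filter of a mean of 1 FPKM that left 10887 genes for testing. RNA came from wild-type (WT) mouse spleen CD8+ T cells, lymphocytes that kill infected or altered cells. Both groups were stimulated in culture for 48 h with antibodies to CD3 and CD28, which engage the antigen receptor complex and its costimulatory partner. The DOPAC group (3 libraries) was cultured with DOPAC (dihydroxyphenylacetic acid), a breakdown product of dopamine. The control group (3 libraries) had the same stimulation without DOPAC. The labels give no dose and no animal age. They do not say whether replicates came from separate animals or cultures, so the p-values cover library-to-library spread alone, and that spread may be technical.

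Levels are in FPKM, fragment counts scaled for transcript length and library size. This scaling allows levels of genes of different length to be set side by side. The lengths used are not stated, so differences in level between genes also depend on them. FPKM carry no read counts, so the sequencing depth behind them is not known and counting error is not shown. The summed FPKM lay between 292755 and 316035 in DOPAC libraries and between 283818 and 310918 in control libraries. CD8 T cell markers were present in every library, with Cd8a at 178 to 192 FPKM in DOPAC libraries and 153 to 202 FPKM in control libraries. Control replicate 1 differed from all other libraries. Across genes, which are not independent replicates, its Pearson r of log2(FPKM + 1) with each of the other 5 was 0.899 to 0.917, while those 5 gave 0.974 to 0.992 among themselves. Counts over the 45 genes and the log2 fold changes of single genes are therefore given with it and without it.

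A dividing cell must copy its genome once per cycle. In late mitosis and G1 the origin recognition complex, with Cdc6 and Cdt1, loads the Mcm2 to Mcm7 ring onto DNA, a step called licensing. In S phase Cdc45, the GINS complex and Mcm10 turn the ring into an active helicase, and polymerases, the sliding clamp Pcna and its loader RFC copy both strands. Many of these genes are targets of E2F factors, which are released from the retinoblastoma protein when cyclin-dependent kinases become active. Resting T cells keep this programme low, and stimulation through CD3 and CD28 switches it on before the rapid divisions of the response.

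A feature the list did not use is the E2F site in the promoter, found for some of the genes. RefSeq promoters (GRCm38.p6, 250 bases before to 50 bases after the start of the gene model) were at hand for 37 of the 45 genes, matched by symbol. Both strands were searched for 4 forms of the E2F site, TTTCCCGC, TTTGGCGC, TTTCGCGC and TTTGCCGC. At least 1 form was found for 15 of the 37 genes (40.5%), against 16 of 48 other replication genes (33.3%). The share was 405 of 7687 tested genes with a promoter (5.27%) and 2.6% of all 27025 genes with a promoter of this length. The cell cycle homology region of mitotic genes was searched as TTTGAA or TTCGAA on both strands. It was found for 8 of the 37 (21.6%), against 16.7% of tested genes and 21.7% of all genes with a promoter. Matches are descriptions of these letters and not evidence of binding. The stretches below show where the E2F matches sit in 5 licensing genes whose levels are compared further on, written 5′ to 3′ on the strand of the gene, with the E2F matches in capitals. Overlapping matches on opposite strands run together in Mcm5 and Mcm6. Mcm7 has another match, TTTCGCGC, after the start of the gene model and outside the stretch shown.
Orc1, chr4:108579407-108579453, plus strand: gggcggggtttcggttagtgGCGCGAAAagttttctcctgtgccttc
Cdc6, chr11:98907993-98908040, plus strand: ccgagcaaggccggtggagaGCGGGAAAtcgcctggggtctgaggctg
Mcm7, chr5:138172021-138172068, minus strand: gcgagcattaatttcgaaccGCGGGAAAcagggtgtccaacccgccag
Mcm5, chr8:75109336-75109387, plus strand: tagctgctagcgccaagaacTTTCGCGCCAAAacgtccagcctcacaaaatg
Mcm6, chr1:128359725-128359835, minus strand: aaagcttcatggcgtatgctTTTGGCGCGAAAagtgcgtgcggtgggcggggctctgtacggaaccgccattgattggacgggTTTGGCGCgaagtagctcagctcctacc

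In Cdt1, Pold1 and Pole2 the match lies after the start of the gene model, and 30 bases around it are shown because these genes differ in direction in the comparison below.
Cdt1, chr8:122568035-122568064, plus strand: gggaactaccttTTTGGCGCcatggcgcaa
Pold1, chr7:44548766-44548795, minus strand: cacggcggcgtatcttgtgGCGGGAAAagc
Pole2, chr12:69228162-69228191, minus strand: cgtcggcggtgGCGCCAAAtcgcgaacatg

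All 45 genes were expressed in every library. Mean levels over the 6 libraries ranged from 7.72 FPKM for Gins3 to 238 FPKM for Pcna, with a median of 25.3 FPKM. A mean over 100 FPKM was found for 8 genes, 18 lay between 20 and 100 FPKM, and 19 lay below 20 FPKM. The 8 highest were Pcna, Mcm3, Mcm4, Rrm2, Mcm5, Mcm6, Uhrf1 and Mcm7. E2f1, a transcription factor of the programme, was among the lowest, at 8.98 to 9.31 FPKM in DOPAC libraries and 7.47 to 10.7 FPKM in control libraries. The plot of levels by library shows the 45 genes grouped by role.

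**Figure D1:**
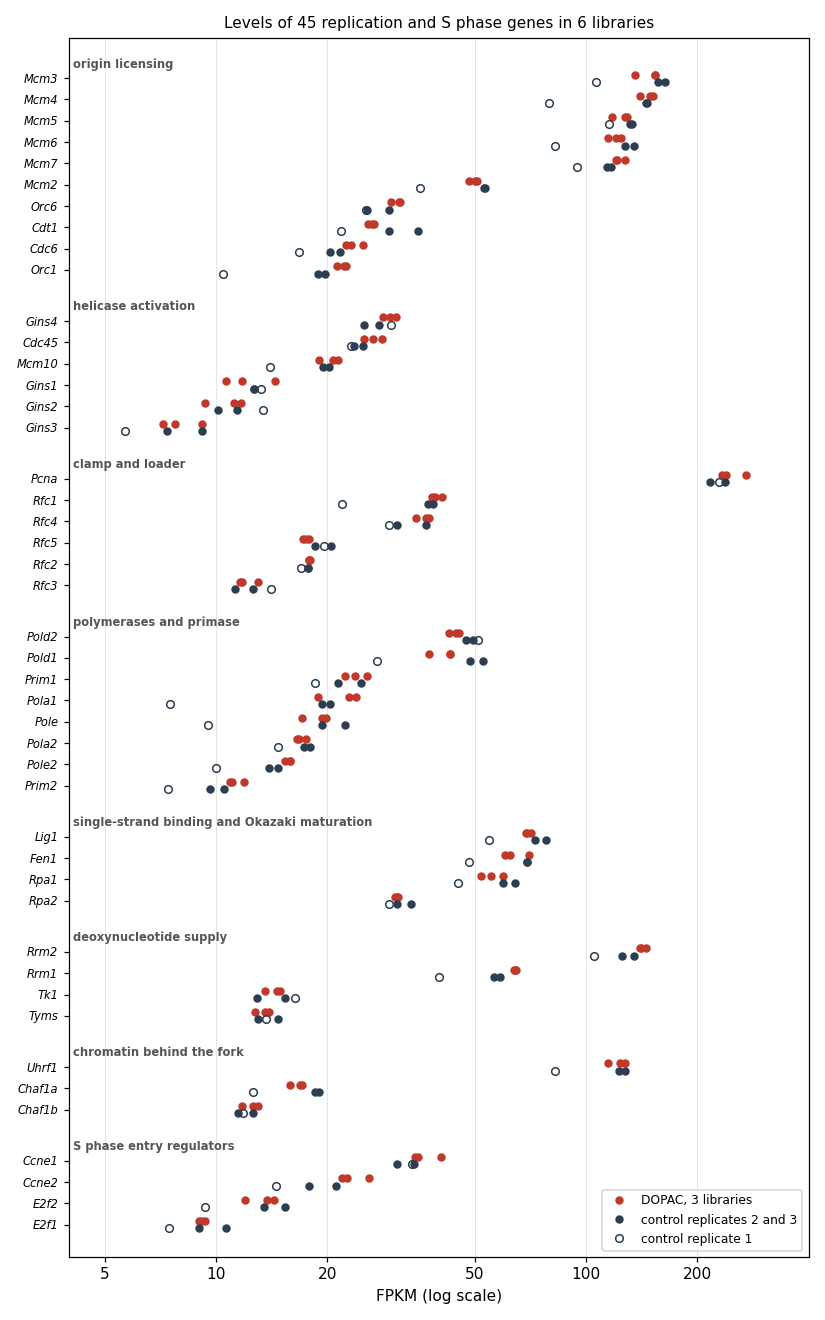
FPKM (log axis) of the 45 genes in each library, grouped by role and ordered by mean level. Red points above each row's centre are the 3 DOPAC libraries, dark points below it are control replicates 2 and 3, and open circles are control replicate 1, which was the lowest library for 34 of the 45 genes.

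Control replicate 1 was the lowest of the 6 libraries for 34 of the 45 genes and the highest for 4. The 45 genes together held 0.682%, 0.745% and 0.740% of the summed FPKM in DOPAC libraries, against 0.544% in control replicate 1 and 0.767% and 0.750% in control replicates 2 and 3. That library's level as a ratio to the mean of the other 2 controls ranged from 0.378 for Pola1 to 1.25 for Gins2, with a median of 0.759. The shortfall moved with gene length. Against the mean of the other 5 libraries, the 4 genes with a summed exon length between 1000 and 2000 bp had a median deviation of 0.087 on the log2(FPKM + 1) scale, and the 5 genes over 8000 bp had a median of -0.61. Over all tested genes the medians of the same length classes were 0.26 and -0.67. The 8 genes between 2000 and 3000 bp had a median of -0.29, against -0.027 over all genes, and all 8 lay below the latter. Between 3000 and 4000 bp the medians were -0.35 and -0.21, and 7 of 10 lay below. Of the 13 genes between 4000 and 6000 bp 7 lay below the all-gene median. That held for 1 of 5 between 6000 and 8000 bp and 2 of 5 over 8000 bp. Across the 45 genes the deviation and log2 length correlated at a Pearson r of -0.43 and a Spearman rho of -0.35, and across 10802 genes with a length at -0.52 and -0.61, where all points share the same libraries. Pola1, at 8813 bp of exons, deviated by -1.37, Orc1 at 3479 bp by -0.94 and Mcm4 at 3589 bp by -0.88, so length alone did not order them. With a smooth length trend taken out of every library, 26 of the 45 log2 fold changes between groups were positive and their median was 0.024.

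**Figure D2:**
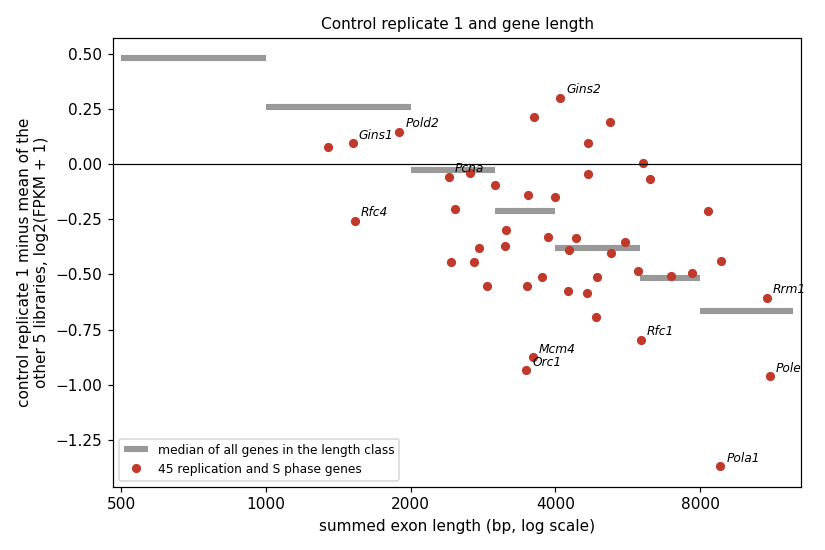
Deviation of control replicate 1 from the mean of the other 5 libraries on the log2(FPKM + 1) scale against summed exon length (log axis). Red points are the 45 genes and grey bars are medians of all tested genes per length class, falling from 0.48 up to 1000 bp to -0.67 over 8000 bp.

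No replication gene changed past the threshold with DOPAC. With limma's moderated test on log2(FPKM + 1), none of the 45 passed the 0.05 threshold after Benjamini-Hochberg adjustment over all 10887 genes (lowest adjusted p 0.801), and 0 of 10887 genes did (0%). At an unadjusted p under 0.05 there were 0 of the 45 genes, against 4.19% of all tested genes (2.73% higher and 1.46% lower). With the replicate number as a block the count was again 0 of 45, against 4.46% of all genes at an unadjusted p and 0% after adjustment. The authors' deposited table also had 0 of the 45 under an unadjusted p of 0.05, with a lowest p of 0.0542 and a lowest adjusted p of 0.801. Log2 fold changes ranged from -0.16 for Pold2 to 0.56 for Pola1, with 33 of 45 positive (73.3%, against 62.1% of all genes). Their median was 0.092, against a median of 0.066 over all genes. In bulk RNA a different share of cells in S phase and a different level of these transcripts per cell cannot be told apart.

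Without control replicate 1 the positive values were 23 of 45 (51.1%, against 47.3% of all genes) and the median was 0.0087, against -0.011 over all genes. With the 5 libraries 0 of the 45 genes had an adjusted p under 0.05 (lowest 0.295), against 2 of 10887 genes (0.0184%). An unadjusted p under 0.05 was found for 5 of the 45 genes (11.1%), against 14.5% of all genes. Of these 5, Orc1 and Rrm1 were higher with DOPAC (2 genes, against 5.57% of all genes) and Cdt1, Pold1 and Chaf1a lower (3 genes, against 8.89%). With the replicate block added there were 4 of 45, against 15.5% of all genes, and 0% of all genes passed after adjustment. These 4 were Pola1, higher, and again Cdt1, Pold1 and Chaf1a, lower. Each of these 5 had an adjusted p of at least 0.295 with limma. Log2 fold changes of the 45 genes then ranged from -0.29 for Pold1 to 0.26 for Ccne2. The 95% intervals of 42 genes lay within 0.5 on either side of 0 and those of all 45 within 1. With all 6 libraries the intervals of 24 genes lay within 0.5. A log2 change of 1 in either direction therefore lay outside the interval of each of the 45 genes without control replicate 1, and outside that of 43 genes with all 6 libraries. The 2 exceptions were Pola1 (interval -0.30 to 1.41) and Orc1 (-0.12 to 1.03).

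**Figure D3:**
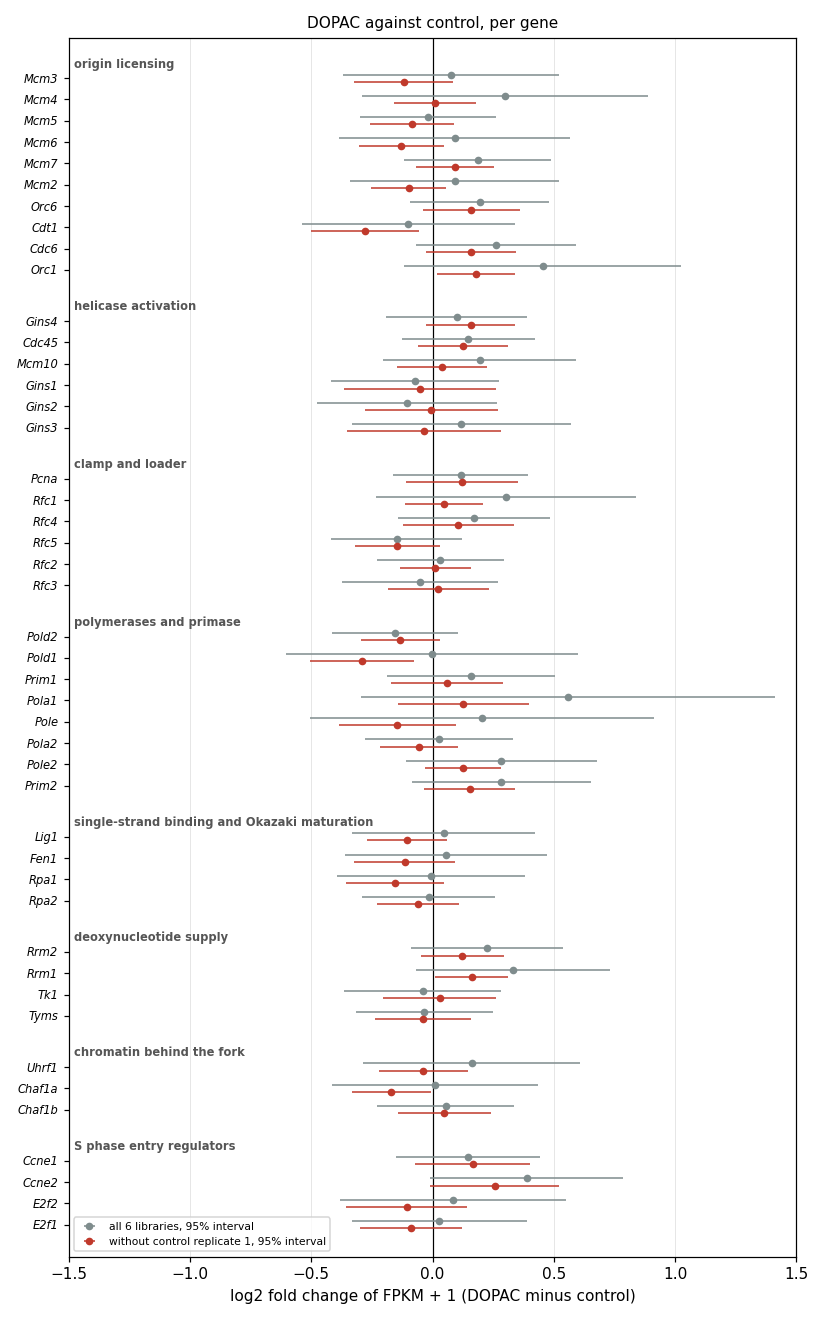
Log2 fold change of FPKM + 1, DOPAC minus control, with its 95% interval from limma, for all 6 libraries (grey, upper point) and without control replicate 1 (red, lower point). All 45 grey intervals include 0, and 5 red intervals exclude it (Orc1, Rrm1, Cdt1, Pold1 and Chaf1a) before adjustment over genes.

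In 14 of the 45 genes the groups did not overlap (31.1%), against 17.2% of all tested genes. The DOPAC libraries were the 3 highest in 12 genes (26.7%, against 12.4% of all genes) and the 3 lowest in 2 (4.44%, against 4.8%). Without control replicate 1 the groups did not overlap in 24 genes (53.3%, against 36.8%), 13 higher (28.9%, against 15.3%) and 11 lower (24.4%, against 21.5%). The 12 higher genes were among the 13, and the 2 lower genes, Rfc5 and Pold2, among the 11. The sizes were small. Relative to the mean of control replicates 2 and 3, the 13 higher genes differed by 0.843% for Rfc2 up to 20.3% for Ccne2, and the 11 lower genes by -5.72% for Mcm5 down to -18.6% for Pold1. Genes move together within a library, so these counts are not 45 separate observations.

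Of the 10 licensing genes, 4 lay above all controls (against 12.4% of all genes) and 0 below them (against 4.8%). Without control replicate 1, 4 lay above the other controls (against 15.3%) and 5 below (against 21.5%). The 4 were Orc1, Orc6, Cdc6 and Mcm7 in both settings, and the 5 were Cdt1, Mcm2, Mcm3, Mcm5 and Mcm6. Orc1, the largest subunit of the origin recognition complex, measured 22.2, 22.5 and 21.2 FPKM in DOPAC libraries and 10.4, 18.8 and 19.8 FPKM in controls. Its groups did not overlap with or without the low value of control replicate 1. The log2 fold change was 0.45 (95% interval -0.12 to 1.03) with all 6 libraries and 0.18 (95% interval 0.016 to 0.34; limma adjusted p = 0.321) without control replicate 1. Orc6, another subunit of the complex, measured 31.4, 31.1 and 29.7 FPKM in DOPAC libraries and 25.4, 25.6 and 29.4 FPKM in controls, so that the closest libraries differed by less than the spread within the controls. Cdc6, the ATPase that joins the complex before the ring is loaded, measured 25.0, 23.2 and 22.5 FPKM in DOPAC libraries and 16.8, 20.3 and 21.7 FPKM in controls. All 3 DOPAC values lay above the highest control. Log2 fold changes were 0.19 for Orc6 and 0.26 for Cdc6 with all 6 libraries. Without control replicate 1 they were 0.16 and 0.16. Cdt1, which escorts the ring to the origin, measured 26.4, 25.8 and 26.7 FPKM in DOPAC libraries and 21.8, 35.2 and 29.4 FPKM in controls. With all 6 libraries the groups overlapped and the log2 fold change was -0.100. Without control replicate 1 it was -0.28 (95% interval -0.50 to -0.057; limma adjusted p = 0.305), and control replicates 2 and 3 lay further from each other than control replicate 3 lay from the highest DOPAC value.

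The ring subunits Mcm3, Mcm4, Mcm5, Mcm6 and Mcm7 all had means over 100 FPKM, while Mcm2 had the lowest level of the ring at 48.2 to 50.8 FPKM in DOPAC libraries and 35.6 to 53.5 FPKM in controls. Mcm3 exceeded Mcm2 by a ratio of 2.97 ± 0.133 in DOPAC libraries and 3.00 ± 0.0497 in controls (SD, n = 3 each). The 6 proteins form a ring with equal copies. Summed exon length is 6956 bp for Mcm2 and 3752 bp for Mcm3, and the lengths behind the FPKM are not stated. The ratio kept its value in control replicate 1, at 2.99, where both genes were low. Mcm6 measured 115, 124 and 121 FPKM in DOPAC libraries and 82.7, 135 and 128 FPKM in controls. Mcm4 measured 139.8, 149 and 152 FPKM in DOPAC libraries and 79.3, 146 and 146 FPKM in controls. Apart from control replicate 1 the 5 Mcm4 values thus spread over a narrow range. Mcm7 was the ring subunit whose groups were separate, DOPAC being higher, at 127, 122 and 120.3 FPKM against 94.8, 117 and 114 FPKM in controls. Its log2 fold change was 0.19 (95% interval -0.12 to 0.49) with all 6 libraries and 0.092 (95% interval -0.069 to 0.25) without control replicate 1. Without that library Mcm2, Mcm3, Mcm5 and Mcm6 had log2 fold changes of -0.099, -0.12, -0.085 and -0.13, each with no overlap between groups, and Mcm4 had 0.0087. In Mcm2, Mcm3 and Mcm6 the sign was positive with all 6 libraries, at 0.090, 0.075 and 0.092, while Mcm4 had 0.30 and Mcm5 -0.019.

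Of the 6 genes of helicase activation, Cdc45 had no overlap between groups with all 6 libraries, against 17.2% of all genes. Gins4 joined it without control replicate 1, where 36.8% of all genes had no overlap. Cdc45, which binds the loaded ring at the start of S phase, measured 28.2, 26.6 and 25.2 FPKM in DOPAC libraries and 23.2, 23.7 and 25.0 FPKM in controls. The lowest DOPAC value was only just above the highest control, and the log2 fold change was 0.15 (95% interval -0.13 to 0.42) with all 6 libraries and 0.13 (95% interval -0.060 to 0.31) without control replicate 1. The 4 GINS subunits, which form a complex with equal copies, differed in level, from Gins4 at 28.2 to 30.6 FPKM in DOPAC libraries and 25.1 to 29.8 FPKM in controls down to Gins3 at 7.19 to 9.19 FPKM in DOPAC libraries and 5.68 to 9.15 FPKM in controls. That order of highest and lowest held in all 6 libraries. Log2 fold changes were -0.073 for Gins1, -0.10 for Gins2, 0.12 for Gins3 and 0.099 for Gins4, with overlapping groups in each. They were -0.052 for Gins1, -0.0047 for Gins2, -0.036 for Gins3 and 0.16 for Gins4 without control replicate 1. Exons of Gins2 overlap Gse1 on the opposite strand over 67.3% of their length, and these libraries do not mark strand, so its level is uncertain. Mcm10, which helps to activate the helicase, measured 19.0, 21.4 and 20.7 FPKM in DOPAC libraries and 14.0, 20.2 and 19.4 FPKM in controls. Its log2 fold change was 0.19 with all 6 libraries and 0.037 without control replicate 1.

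Pcna, the clamp that holds polymerases on DNA, was the most abundant transcript of the 45, at 270.5, 239 and 233 FPKM in DOPAC libraries and 229.5, 216 and 238 FPKM in controls. The highest value was DOPAC replicate 1 and the groups overlapped. The log2 fold change was 0.12 (95% interval -0.16 to 0.39), or 0.12 (95% interval -0.11 to 0.35) without control replicate 1. A processed pseudogene, Pcna-ps2, matches 781 bases of its transcript at 99.2% identity, so the authors' counting may have split its reads. Processed pseudogenes also match parts of Mcm7, Uhrf1, Rfc5 and Rrm2, at 97.7%, 98.3%, 95.5% and 95.5% identity. The clamp loader has 5 subunits of equal copy number, and their transcripts ranged from Rfc1 at 38.4 to 40.9 FPKM in DOPAC libraries and 21.9 to 38.7 FPKM in controls to Rfc3 at 11.6 to 13.0 FPKM in DOPAC libraries and 11.2 to 14.1 FPKM in controls. Rfc5 was 1 of the 2 genes below all controls, at 17.5, 17.2 and 17.8 FPKM in DOPAC libraries and 19.6, 18.5 and 20.5 FPKM in controls. Its log2 fold change was -0.15 (95% interval -0.42 to 0.12) and -0.15 (95% interval -0.32 to 0.029) without control replicate 1. Rfc2 was the most even gene of the 45, with a coefficient of variation of 0.496% over the 5 libraries other than control replicate 1. It measured 17.9, 17.9 and 17.9 FPKM in DOPAC libraries and 16.995, 17.7 and 17.7 FPKM in controls, and its log2 fold change was 0.031, or 0.011 without control replicate 1. With all 6 libraries it was negative under quantile normalization, equal medians and removal of the length trend. Rfc4 measured 34.8, 37.0 and 37.6 FPKM in DOPAC libraries and 29.4, 30.9 and 36.9 FPKM in controls, with overlap. Log2 fold changes with all 6 libraries were 0.30 for Rfc1, -0.053 for Rfc3 and 0.17 for Rfc4. Without control replicate 1 they were 0.047, 0.024 and 0.11.

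The polymerases held both the largest negative and, with all 6 libraries, the largest positive values. Pold1, the catalytic subunit of polymerase delta, which makes the lagging strand, measured 37.7, 42.9 and 42.9 FPKM in DOPAC libraries and 27.2, 52.6 and 48.5 FPKM in controls. The DOPAC values lay between control replicate 1 and the other controls, so the log2 fold change was -0.0014 with all 6 libraries and -0.29 (95% interval -0.50 to -0.078; limma adjusted p = 0.295) without control replicate 1. Pold2, an accessory subunit of the same enzyme, measured 42.6, 44.6 and 45.4 FPKM in DOPAC libraries and 50.9, 49.7 and 47.4 FPKM in controls. It lay below all controls, its log2 fold change being -0.16 (95% interval -0.42 to 0.11), or -0.13 (95% interval -0.30 to 0.030) without control replicate 1. Pole, the catalytic subunit of polymerase epsilon on the leading strand, measured 17.1, 19.8 and 19.3 FPKM in DOPAC libraries and 9.52, 22.3 and 19.4 FPKM in controls. Its partner Pole2 lay above all controls, at 15.8, 15.8 and 15.4 FPKM in DOPAC libraries and 9.98, 13.9 and 14.7 FPKM in controls. Their log2 fold changes without control replicate 1 were -0.15 for Pole and 0.12 for Pole2, against 0.20 and 0.28 with all 6 libraries, and the difference between the genes was not tested.

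Polymerase alpha and primase start each new strand. Pola1, the catalytic subunit, measured 18.9, 22.9 and 23.8 FPKM in DOPAC libraries and 7.51, 20.4 and 19.4 FPKM in controls. Its log2 fold change of 0.56 (95% interval -0.30 to 1.41) became 0.13 (95% interval -0.14 to 0.40) without control replicate 1. The primase subunit Prim2 measured 11.9, 11.0 and 10.9 FPKM in DOPAC libraries and 7.41, 9.61 and 10.5 FPKM in controls, with no overlap. Prim1, the catalytic primase subunit, overlapped between groups, at 22.4 to 25.6 FPKM in DOPAC libraries and 18.5 to 24.6 FPKM in controls. Pola2, an accessory subunit of polymerase alpha, measured 16.5 to 17.5 FPKM in DOPAC libraries and 14.7 to 18.0 FPKM in controls. Log2 fold changes with all 6 libraries were 0.28 for Prim2, 0.16 for Prim1 and 0.026 for Pola2. Without control replicate 1 they were 0.15, 0.059 and -0.056.

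The 4 genes of single-strand binding and Okazaki fragment maturation all had negative values without control replicate 1, with a median log2 fold change of -0.11. In that setting 2 of the 4 had no overlap, against 36.8% of all genes. Both were lower with DOPAC, against 21.5% of all genes. Rpa1, the large subunit of the single-strand binding protein, measured 51.9, 59.6 and 55.3 FPKM in DOPAC libraries and 45.2, 64.1 and 59.8 FPKM in controls. Lig1, the ligase that seals Okazaki fragments, measured 69.5, 71.2 and 68.9 FPKM in DOPAC libraries and 54.6, 78.0 and 72.6 FPKM in controls. In both genes the DOPAC values lay between control replicate 1 and the other controls. Fen1, the nuclease that trims the fragments, measured 60.3, 70.1 and 62.2 FPKM in DOPAC libraries and 48.4, 69.5 and 69.5 FPKM in controls. Exons of Fen1 overlap the antisense gene Gm10143 over 78.8% of their length, so its reads are uncertain. With all 6 libraries the log2 fold changes of Rpa1, Rpa2, Lig1 and Fen1 were -0.0064, -0.017, 0.046 and 0.056. They were -0.16, -0.060, -0.11 and -0.11 without control replicate 1.

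Of the 4 enzyme genes that supply deoxynucleotides, the 2 of ribonucleotide reductase lay above the controls, with and without control replicate 1. The shares of all genes above the controls were 12.4% and 15.3% in these settings. Rrm1, the large subunit, measured 64.0, 64.7 and 64.4 FPKM in DOPAC libraries and 40.1, 56.3 and 58.6 FPKM in controls. The log2 fold change was 0.33 (95% interval -0.068 to 0.73) with all 6 libraries and 0.16 (95% interval 0.012 to 0.31; limma adjusted p = 0.328) without control replicate 1. Rrm2, the small subunit that is made in S phase, measured 141, 139.9 and 145 FPKM in DOPAC libraries and 105, 125 and 135 FPKM in controls. Its values did not overlap, the log2 fold change being 0.23 (95% interval -0.088 to 0.54), or 0.12 (95% interval -0.046 to 0.29) without control replicate 1. The ratio of Rrm2 to Rrm1 was 2.204 ± 0.0447 in DOPAC libraries and 2.39 ± 0.209 in controls (SD, n = 3 each). It was 2.62 in control replicate 1, the highest of all libraries, and 2.22 and 2.31 in control replicates 2 and 3. The DOPAC libraries ranged from 2.16 to 2.25, so control replicate 2 lay within their range. A difference in this ratio was not tested. Tyms, thymidylate synthase, and Tk1, thymidine kinase, overlapped between groups, with log2 fold changes of -0.034 (95% interval -0.32 to 0.25) and -0.041 (95% interval -0.37 to 0.28). Tyms had -0.040 and Tk1 0.029 without control replicate 1.

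The 3 genes of the next group restore chromatin behind the fork. Without control replicate 1, 1 of these had no overlap, against 36.8% of all genes. Chaf1a, the large subunit of the histone chaperone CAF-1, measured 17.1, 16.9 and 15.9 FPKM in DOPAC libraries and 12.6, 19.0 and 18.6 FPKM in controls. Its log2 fold change was 0.010 with all 6 libraries and -0.17 (95% interval -0.33 to -0.0059; limma adjusted p = 0.336) without control replicate 1. Exons of Chaf1a overlap Ubxn6 on the opposite strand over 52.5% of their length. Chaf1b, its partner, measured 12.6, 13.0 and 11.7 FPKM in DOPAC libraries and 11.9, 12.6 and 11.5 FPKM in controls. Uhrf1 brings the maintenance DNA methyltransferase to newly made DNA. It measured 115, 128 and 124 FPKM in DOPAC libraries and 82.4, 128 and 123 FPKM in controls. Log2 fold changes with all 6 libraries were 0.053 for Chaf1b and 0.16 for Uhrf1. Without control replicate 1 they were 0.048 and -0.038.

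Of the 4 regulators of S phase entry, both cyclin E genes lay above the controls and both E2F genes overlapped with them. This held with and without control replicate 1, where 12.4% and 15.3% of all genes lay above the controls. Ccne2, which encodes cyclin E2, measured 25.9, 21.9 and 22.6 FPKM in DOPAC libraries and 14.5, 17.9 and 21.2 FPKM in controls. Exons of Ccne2 overlap Ints8 on the opposite strand over 17.4% of their length. With limma Ccne2 had the smallest p of the 45 genes, an unadjusted 0.054 and an adjusted p of 0.801. The log2 fold change was 0.39 (95% interval -0.0095 to 0.79). Without control replicate 1 the value was 0.26 (95% interval -0.0094 to 0.52; limma adjusted p = 0.353). Ccne1, which encodes cyclin E1, measured 40.5, 34.4 and 35.3 FPKM in DOPAC libraries and 34.0, 30.9 and 34.3 FPKM in controls, so that the lowest DOPAC value was just above the highest control. Its log2 fold change was 0.15 (95% interval -0.15 to 0.44) and 0.17 (95% interval -0.072 to 0.40) without control replicate 1. E2f2 measured 14.3, 13.7 and 11.98 FPKM in DOPAC libraries and 9.34, 15.4 and 13.5 FPKM in controls. Log2 fold changes of E2f1 and E2f2 were 0.028 and 0.084 with all 6 libraries and -0.089 and -0.11 without control replicate 1.

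The direction moved with the GC content of the transcripts, with and without control replicate 1. The 13 genes with all DOPAC libraries above control replicates 2 and 3 had a median transcript GC content of 47.3%, the 11 genes below had 53.2%, and the 21 with overlap had 50.2%. Across the 45 genes GC content and log2 fold change correlated at a Pearson r of -0.70 and a Spearman rho of -0.65, and across 10802 genes at -0.23 and -0.32, all from the same 5 libraries. With all 6 libraries the values were -0.68 and -0.68 across the 45 genes and -0.37 and -0.50 across 10802 genes. Pold1 and Cdt1, the 2 lowest, had the highest GC contents of the 45 at 60.4% and 59.0%. Ccne2, the highest, had 42.5%. Over all tested genes the median log2 fold change ran from 0.052 at up to 42% GC to -0.094 over 54% GC. With a smooth GC trend taken out of each of the 5 libraries, a setting chosen after seeing the data, the 13 higher genes again had no overlap and 5 of the 11 lower genes did (Mcm6, Cdt1, Rfc5, Pold1 and Chaf1a). The share of the 45 with no overlap was then 40.0%, against 32.9% of all genes. In that setting the log2 fold changes of Pold1 and Cdt1 were -0.17 and -0.17, that of Mcm2 was 0.0061 and that of Ccne2 was 0.21. An unadjusted p under 0.05 was left for 1 of the 45 genes, Orc1 at 0.17 (limma adjusted p = 0.480), against 10.3% of all genes, and 0.0185% of all genes passed after adjustment. Positive values were 27 of 45, against 51.7% of all genes.

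**Figure D4:**
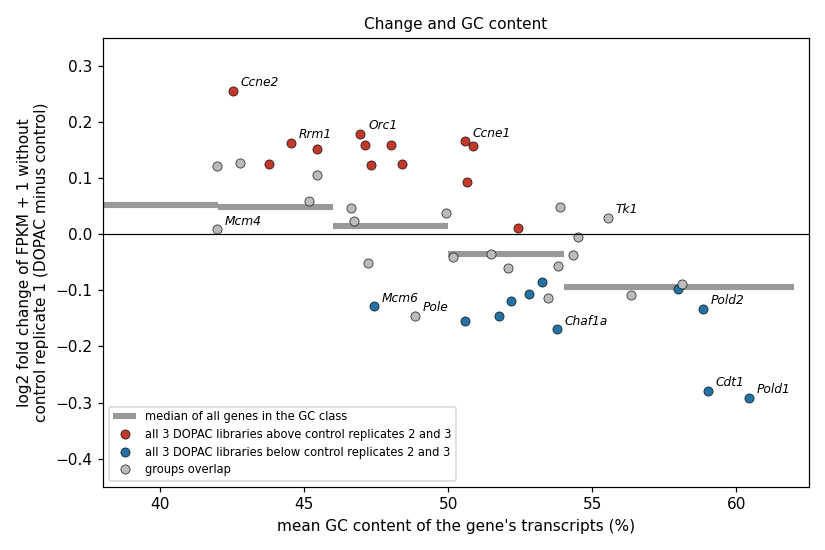
Log2 fold change of FPKM + 1 without control replicate 1 against mean transcript GC content of the 45 genes. Red points have all 3 DOPAC libraries above control replicates 2 and 3 (13 genes), blue points below (11 genes), light grey points overlap (21 genes), and grey bars are medians of all tested genes per GC class, from 0.052 at up to 42% to -0.094 over 54%.

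Further replication genes outside the list are given for comparison. A further 4 lists held 62 other genes of initiation, the fork, deoxynucleotide supply and chromatin, and E2F control, all of them measured. With limma 0 of the 62 passed the adjusted threshold and 0 had an unadjusted p under 0.05, against 0% and 4.19% of all genes. Positive values were 49 of 62, against 62.1% of all genes, with a median log2 fold change of 0.16, against 0.066. Without control replicate 1 there were 30 positive values, against 47.3% of all genes, and a median of -0.0027, against -0.011. In that setting 0 of the 62 passed the adjusted threshold. At an unadjusted p under 0.05 there were 3 higher and 4 lower genes, against 5.57% and 8.89% of all genes. The 2 smallest p values per list belonged to Orc5 and Orc3, subunits of the origin recognition complex, Top2a, a topoisomerase, Rpa3, the small single-strand binding subunit, Slbp and Nasp, which handle histone mRNA and histones, and Chek1 and Skp2, a checkpoint kinase and a ubiquitin ligase subunit. Orc5 measured 7.60, 8.18 and 8.09 FPKM in DOPAC libraries and 4.55, 6.71 and 6.53 FPKM in controls. Its log2 fold change was 0.39 with all 6 libraries and 0.23 without control replicate 1, and that of Orc3 was 0.46 and 0.20. The remaining subunits in these lists, Orc2 and Orc4, named here after their values were seen, overlapped between groups in both settings, with 0.16 and -0.062 for Orc2 and 0.29 and 0.093 for Orc4. Values for Top2a were 0.44 and 0.075, for Rpa3 -0.24 and -0.11, for Slbp 0.34 and 0.19, for Nasp 0.22 and 0.16, for Chek1 0.38 and 0.14 and for Skp2 0.25 and 0.098.

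In a list of 25 mitosis genes, which act after S phase, 20 values were positive with a median log2 fold change of 0.22, and 15 were positive with a median of 0.027 without control replicate 1. None passed the adjusted threshold with limma in either setting, and 1 gene, Cdc20, had an unadjusted p under 0.05 with all 6 libraries, against 4.19% of all genes. Without control replicate 1 there were 2 higher and 4 lower mitosis genes of 25 at an unadjusted p under 0.05, against 14.5% of all genes. Cdc20, an activator of the anaphase-promoting complex, measured 93.1, 76.4 and 75.5 FPKM in DOPAC libraries and 107, 99.6 and 97.5 FPKM in controls, a log2 fold change of -0.31 and -0.27 without control replicate 1. Nusap1, a spindle protein, had 0.37 and 0.23. E2F matches were found in the promoters of 1 of 21 mitosis genes (4.76%) and the cell cycle homology region in 16 of 21 (76.2%). No difference between the mitosis genes and the 45 replication genes was tested.

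Levels of macrophage and fibroblast markers differed between the groups without overlap of their sums, while the erythroid sums and the B cell marker overlapped. Of 7 macrophage and dendritic cell markers, 3 were among the 11175 genes, Lyz2, Cd68 and C1qb, while Csf1r, Adgre1, C1qa and Itgax were not. The summed level of the 3 was 4.77 to 13.0 FPKM in DOPAC libraries and 15.4 to 35.2 FPKM in controls. Most of it was Lyz2, at 2.57 to 10.4 FPKM in DOPAC libraries and 11.2 to 30.2 FPKM in controls. Cd68 was at 1.88 to 1.98 and 2.42 to 3.61 FPKM, and C1qb at 0.238 to 0.652 and 1.22 to 1.40 FPKM. Of 4 fibroblast markers, 3 were measured, with sums of 0.330 to 16.0 FPKM in DOPAC libraries and 25.7 to 27.9 FPKM in controls. Of 4 erythroid markers, 2 were measured, with sums of 0.280 to 3.02 FPKM in DOPAC libraries and 2.72 to 10.4 FPKM in controls. The B cell marker Cd79b was at 1.47 to 2.61 FPKM in DOPAC libraries and 1.54 to 2.49 FPKM in controls. The 7 CD8 T cell markers summed to 758 to 838 FPKM in DOPAC libraries and 829 to 850 FPKM in controls. Of the CD4 T cell, NK cell and neutrophil markers looked for, 0 were among the 11175 genes. Whether other cells were present, and any part of theirs in the values of the replication genes, was not tested.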

How the data were processed

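RNA was measured in 6 libraries, 3 DOPAC and 3 control, grouped by their treatment labels. Per the labels' protocols, full-length cDNA (SMART-Seq HT) was made into paired-end Nextera XT libraries, a chemistry that does not mark strand. The submitters' processing notes name cutadapt 1.9, HISAT2 2.2.1 and mm10. Which program and annotation produced the FPKM is not stated in the labels or the header. The authors deposited FPKM per gene and library, together with a log2 fold change and a p-value and adjusted p-value per gene. Their deposited log2 fold change equals the difference of group means of log2(FPKM + 1).

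From the FPKM, log2(FPKM + 1) was computed for the 10887 of 11175 genes with a mean of at least 1 FPKM (288 left out) and fitted with limma 3.58.1 (moderated test with a mean-variance trend, R 4.3.3), DOPAC minus control, two-sided, with Benjamini-Hochberg adjustment over all genes and a threshold of 0.05. The procedure was tested on simulated data. Intervals are 95% intervals of that fit. Exon lengths, GC content and overlaps came from GENCODE M21, which held 11067 of the listed genes. Copies were sought with minimap2 2.31-r1302 (at least 95% identity over 200 bases). Alternatives were another pseudocount, other filters, quantile normalization, equal medians, removal of a length trend, each library left out, the replicate number as a block, and, chosen after seeing the data, removal of a GC trend without control replicate 1.

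Deviations from group means of same-numbered DOPAC and control libraries correlated at 0.34, 0.16 and 0.28 for replicates 1, 2 and 3, each above the limit of 0.1 set for reading the numbers as pairs. The main fit has no block, and the fit with the replicate block is given beside it where it moved a count. No label ties same-numbered libraries to one animal or day, and control replicate 2 correlated at 0.24 with DOPAC replicate 3. The 45 genes and all gene lists were chosen with earlier results of these data known. All 45 were named, and from each other list the 2 genes with the smallest unadjusted p.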

Additional observations from a re-analysis of the deposited data

How the results depend on the processing

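With limma no call changed for the 45 genes: an adjusted p under 0.05 was found for none of them in any of the 15 alternatives. A pseudocount of 0.1, no filter, and a filter at a mean of 5 FPKM kept every direction. At an unadjusted p under 0.05 there was 1 gene, Ccne2, under quantile normalization, 1 under equal medians and 1 with the length trend removed, and the cause was not tested. Leaving out each library in turn gave 0 to 5 genes at an unadjusted p, 15 to 24 genes with separate groups, a median log2 fold change of 0.0087 to 0.15 and 0 to 2 of all genes past the adjusted threshold. Leaving out control replicate 1 gave the 5, the 24, the 0.0087 and the 2. Over all genes that setting gave 14.5% at an unadjusted p under 0.05 and 36.8% with separate groups. With all 6 libraries those shares were 4.19% and 17.2%. For the other left-out libraries, and for quantile normalization, equal medians and the length trend, these shares were not computed. With the replicate block and all 6 libraries the median was 0.092 and 0 genes passed. With the replicate block and without control replicate 1, 4 of the 45 had an unadjusted p under 0.05, against 15.5% of all genes. The median was then 0.0017. With the GC trend removed and without control replicate 1, 1 of the 45 had an unadjusted p under 0.05, against 10.3% of all genes. In that setting 2 of all genes passed after adjustment.

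Values whose sign differed from that with all 6 libraries, as log2 fold changes, were these. Under quantile normalization: Rfc2 -0.013, Pola2 -0.019, E2f1 -0.0299, Chaf1a -0.031 and Chaf1b -0.00073. Under equal medians: Rfc2 -0.028, Pola2 -0.032, Lig1 -0.013, Fen1 -0.0026, E2f1 -0.0303, Chaf1a -0.048 and Chaf1b -0.0054. With the length trend removed: Mcm2 -0.043, Gins1 0.014, Rfc2 -0.093, Pola2 -0.12, Lig1 -0.028, E2f1 -0.0051, E2f2 -0.0077, Chaf1a -0.15 and Chaf1b -0.033. With the replicate block and without control replicate 1: Mcm2 -0.077, Mcm3 -0.061, Mcm6 -0.097, Gins3 -0.014, Pola2 -0.049, Pole -0.084, Lig1 -0.10, Fen1 -0.072, Tk1 0.0017, E2f1 -0.10, E2f2 -0.16 and Chaf1a -0.19. With the GC trend removed and without control replicate 1: Mcm3 -0.083, Mcm4 -0.037, Mcm6 -0.14, Gins2 0.062, Gins3 -0.0056, Rfc3 0.0104, Pole -0.14, Lig1 -0.062, Fen1 -0.062, Tk1 0.11, E2f2 -0.018 and Chaf1a -0.11. The range over the 6 fits that each leave out 1 library crossed 0 for Mcm2 -0.099 to 0.19, Mcm3 -0.12 to 0.19, Mcm5 -0.085 to 0.021, Mcm6 -0.13 to 0.22, Cdt1 -0.28 to 0.053, Gins1 -0.19 to 0.017, Gins3 -0.036 to 0.27, Rfc3 -0.13 to 0.024, Pola2 -0.056 to 0.081, Pold1 -0.29 to 0.17, Pole -0.15 to 0.43, Rpa1 -0.16 to 0.093, Rpa2 -0.0602 to 0.036, Lig1 -0.11 to 0.15, Fen1 -0.11 to 0.14, Tyms -0.071 to 0.0099, Tk1 -0.13 to 0.029, Uhrf1 -0.038 to 0.28, E2f1 -0.089 to 0.14, E2f2 -0.11 to 0.22 and Chaf1a -0.17 to 0.11. The cause of these differences was not tested beyond what each setting changes. FPKM hold no counts, so what sequencing depth limits could not be stated.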
